A study of Rattus norvegicus with 9 samples.

Results

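The tRNA-Asp-GTC fragments are the short RNAs of rat islets whose host is the nuclear tRNA that carries aspartate and reads its codons with the anticodon GTC (written here as DNA). They were taken as every row of the deposited table of tRNA-derived fragments (tRFs) with that host, each sequence kept once, which gave 20 distinct tRFs from 23 rows, out of 192 distinct tRFs in 255 rows. None of the 20 sequences was listed for another host. The islets came from 22-day-old Sprague Dawley rats, male per the study's methods, whose mothers ate 1 of 2 diets of equal energy from early pregnancy to weaning. In the LP group (n = 4) the mothers received a low-protein diet with 5.3% protein, and in the CD group (n = 5) a chow diet with 16.8% protein. The study asked which islet tRFs change in LP offspring, a model of susceptibility to diabetes. The labels and the study's methods give the fat and carbohydrate contents of the LP diet the other way round, so only protein is given here.

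The study counts each sample as an animal, and neither it nor the labels say which animals shared a litter. The p-values therefore measure the spread between these samples, which may be smaller than that between litters. The table counts summed to 12556 to 40166 reads per LP sample and 26166 to 34775 per CD sample, of which tRNA-Asp-GTC tRFs gave 1979 to 7567 in LP and 1964 to 14227 in CD. The table holds only tRFs that the study called as changed between these same samples. A difference between LP and CD was therefore the condition for being listed, and the tests below give the size and spread of a difference and are not independent evidence that it exists. Selection of this kind tends to make sizes too large. Forms of this tRNA that did not meet the condition are not analysed here. The table holds no markers of islet cells, and in whole islets a smaller share of a cell type and less RNA per cell cannot be told apart.

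Transfer RNAs fold into a cloverleaf whose anticodon loop reads the codon and whose 3′ end, finished by an added CCA, carries the amino acid. Cleavage in or near the anticodon loop, in stressed mammalian cells mainly by the ribonuclease angiogenin, leaves 5′ and 3′ pieces, and cuts elsewhere leave shorter or longer ones. tRNA-Asp-GTC is one of the few mammalian tRNAs with queuosine at the first anticodon base, built from the micronutrient queuine, and it is the classical substrate of the methyltransferase Trdmt1 (Dnmt2), which methylates a cytosine just 3′ of the anticodon. Both modifications are known to protect tRNAs from cleavage.

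No tRNA sequence was used from outside the table. Asp-52, the longest tRF, and Asp-37c, the most abundant, overlap by 16 bases and join into a single assembled sequence of 73 bases, on which every other member could be placed with at most 1 difference. This is 1 base more than the 72 bases of each of the 26 genes that RefSeq (GRCr8) names Trnad-guc, and which of these copies gave a fragment cannot be read from the table. Whether base 73 belongs to these genes or to the added CCA was not tested. Names such as Asp-37c give the number of nucleotides (nt), a letter telling apart tRFs of equal length, and bases are counted from 1 at the 5′ end of the joined sequence. The sequences below are shown because the groups of the results differ by where they start and stop; capitals mark the bases of the anticodon (bases 34 to 36) and, in Asp-37b, a base that differs from the joined sequence.
Joined sequence: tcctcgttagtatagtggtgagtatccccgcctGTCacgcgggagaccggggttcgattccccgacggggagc
Asp-50 (bases 1 to 50): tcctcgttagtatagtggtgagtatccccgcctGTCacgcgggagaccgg
Asp-37c (bases 37 to 73): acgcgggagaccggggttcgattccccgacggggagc
Asp-37b (bases 37 to 73): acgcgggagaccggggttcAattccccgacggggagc
Asp-32a (bases 37 to 68): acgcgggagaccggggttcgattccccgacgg
Asp-27a (bases 37 to 63): acgcgggagaccggggttcgattcccc
Asp-35b (bases 35 to 69): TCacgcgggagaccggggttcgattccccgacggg
Asp-36 (bases 35 to 70): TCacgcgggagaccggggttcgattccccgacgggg
Asp-27c (bases 44 to 70): agaccggggttcgattccccgacgggg

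The members fell into 3 kinds by position. The 3 tRFs over 37 nt (Asp-48, Asp-50 and Asp-52) started at base 1, ran through the anticodon and stopped at bases 48, 50 and 52, before the loop of the T arm. The 3 tRFs of 37 nt started at base 37, directly after the anticodon, and ran to base 73. The 14 tRFs of 25 to 36 nt started between bases 35 and 44 and stopped between bases 63 and 70, so each lacked 3 to 10 bases at the 3′ side that the 37-nt tRFs have. The length classes are thus also classes of position, and no member was a 5′ piece that stops at the anticodon. Of the 20 sequences, 14 lay whole within a longer one, so the tRFs are not independent of each other, and how the authors counted a read that fits several nested sequences is not given in the sources used here.

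**Figure D1:**
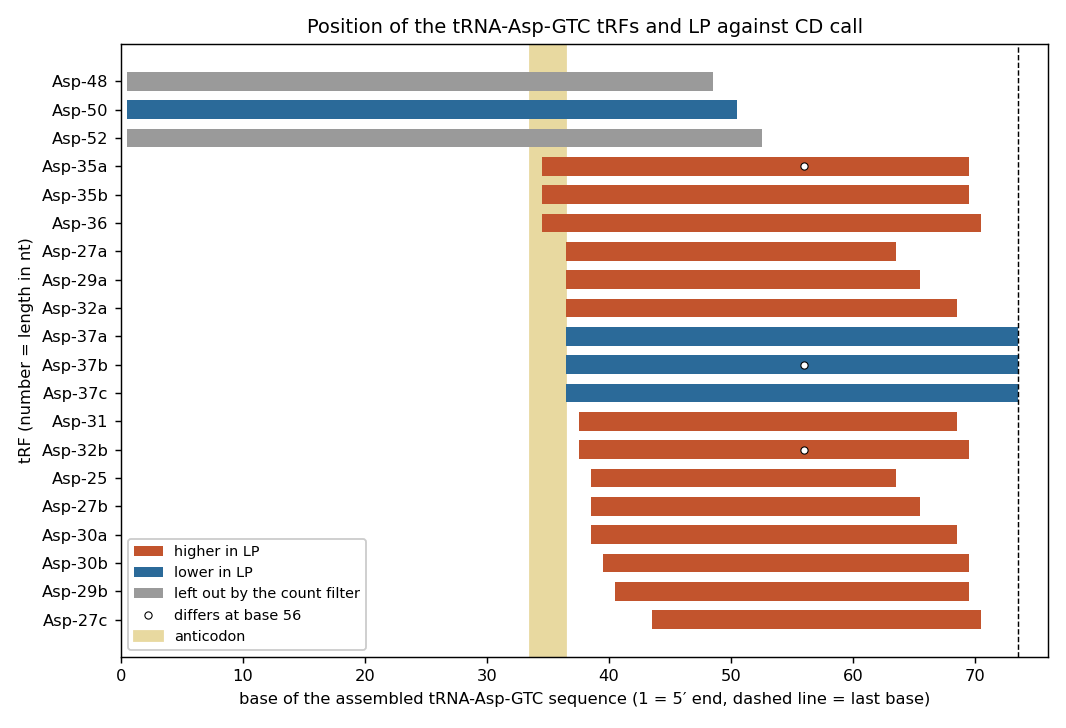
Each bar spans the bases of 1 tRNA-Asp-GTC tRF on the joined sequence (x axis, base 1 at the 5′ end, dashed line after base 73), coloured by its call in LP against CD, with the anticodon shaded and a dot where base 56 differs. The 14 bars that stop at bases 63 to 70 were called higher in LP, and the 3 that reach base 73 were called lower. Of the tRFs tested from all hosts, 41.4% were called higher and 56.4% lower.

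In LP islets the 37-nt tRFs fell and the 25 to 36-nt tRFs rose. With edgeR's quasi-likelihood test, calling a tRF at 2-fold and a Benjamini-Hochberg adjusted p of 0.05 over the whole table, 14 members were higher in LP and 4 lower, of 18 that passed a filter on low counts (minimum count 10). Of the 181 tRFs tested from all hosts, 41.4% were called higher, 56.4% lower and 97.8% either way, so that a member was called at all is no result. With scaling factors taken from the listed counts, 76 tRFs of all hosts were called higher and 71 lower (TMM), or 76 and 26 (totals), while the members were 14 higher and 3 lower under both. Those 3 were Asp-37a, Asp-37b and Asp-48, which passed the filter there, while Asp-37c and Asp-50 lost their call. No member changed direction. The median log2 fold change of the members was 1.80, against -1.49 over the table. The levels of the LP and CD samples did not overlap for 8 of the 20 members, 7 with LP higher and 1 with LP lower. Of all 192 tRFs, 76.6% had groups that did not overlap, 28.6% with LP higher and 47.9% with LP lower. The 2 members that the filter left out, Asp-48 and Asp-52, both start at base 1 and had lower means in LP. Members higher in LP could pass the filter through LP while having few CD reads.

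The most abundant tRF of the whole table was Asp-37c, the 3′ piece that begins directly after the anticodon. Its level, like those that follow, is a normalized read count, meaning the raw count over the size factor that the authors gave to the library. Asp-37c had 2349, 575, 639 and 1522 normalized read counts in LP 1 to LP 4, against 10988, 4099, 911, 2226 and 12270 in CD 1 to CD 5. CD 1 and CD 5 were far above all other samples, while CD 3 and CD 4 lay within the range of LP, so the groups overlapped. It averaged 1271 ± 838 in LP and 6099 ± 5194 in CD (SD, n = 4 and 5), a log2 fold change of -2.26 ± 0.75 (SE, edgeR adjusted p = 0.00915). The call depended on the scaling of the libraries. With scaling factors taken from the table itself in place of the authors', the log2 fold change was -1.55 (TMM, edgeR adjusted p = 0.0527), -1.18 (table totals, edgeR adjusted p = 0.0671) or -1.29 (DESeq2, adjusted p = 0.0673). Scaling factors taken from the table rest only on tRFs listed as changed, and which scaling is nearer to the true levels was not tested. Over all 15 alternatives, the adjusted p from edgeR or DESeq2 was 0.00352 to 0.0673.

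The other 37-nt tRFs match Asp-37c at all but 1 base. Asp-37b has the substitution G56A, in the loop of the T arm, and reached 106, 38.9, 119.8 and 154 normalized read counts in LP 1 to LP 4, against 1258, 551, 167, 356 and 1877 in CD 1 to CD 5. Every LP sample lay below every CD sample, and the log2 fold change was -3.005 ± 0.69 (SE, edgeR adjusted p = 0.00292). Asp-37a has an undetermined base, N, as its first base and is otherwise the sequence of Asp-37c, so it may hold reads of the same fragment. It had 6.85, 2.99, 2.75 and 5.56 normalized read counts in LP 1 to LP 4, against 76.8, 26.4, 6.65, 20.5 and 64.1 in CD 1 to CD 5, with a log2 fold change of -3.08 ± 0.68 (SE, edgeR adjusted p = 0.00274). LP 1 was just above CD 3, and the LP values rest on 3 to 10 reads each. All 3 tRFs of 37 nt were lowest among CD samples in CD 3. Under TMM and table totals the log2 fold changes were -2.35 and -1.97 for Asp-37b and -2.40 and -2.04 for Asp-37a, and both tRFs kept their call.

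Reads with A at base 56 made up a minor part of the 37-nt tRFs in all libraries. Asp-37b was 4.30%, 6.33%, 15.8% and 9.19% of the counts of Asp-37b and Asp-37c together in LP 1 to LP 4, against 10.3%, 11.9%, 15.5%, 13.8% and 13.3% in CD 1 to CD 5. The 95% Wilson interval was 3.45% to 5.34% in LP 1, the lowest sample, and 13.7% to 18.0% in LP 3, the highest, where such intervals cover counting error only. The LP samples lay on both sides of the CD range, with a mean of 8.90% ± 5.004 in LP and 12.9% ± 1.98 in CD (SD, n = 4 and 5). The same base stood in Asp-35a and Asp-32b, so the variant occurred in tRFs that rose as well as in one that fell. Asp-35a took 14.3% ± 4.19 of the counts of Asp-35a and Asp-35b in LP and 18.2% ± 9.87 in CD (SD, n = 4 and 5), with overlapping groups. The origin of the base difference was not tested.

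Among the tRFs of 25 to 36 nt, all 14 were called higher in LP, against 41.4% of the tRFs tested from all hosts. Their log2 fold changes were 1.47 to 2.57, with standard errors of 0.41 to 0.64 and edgeR adjusted p of 0.00178 to 0.00546. Under TMM the log2 fold changes were 2.06 to 3.14 and under table totals 2.24 to 3.24. In 7 of the 14 every LP sample lay above every CD sample. Of all 192 tRFs, 28.6% were separated in that direction and 76.6% in either. Among the 7, Asp-31, Asp-27b, Asp-25 and Asp-29b had few CD reads and passed the filter mainly through LP. The most abundant was Asp-32a, which starts at the same base as Asp-37c and stops 5 bases short of base 73. It had 273, 220.3, 555 and 642 normalized read counts in LP 1 to LP 4, against 94.4, 120.0, 158, 235 and 157 in CD 1 to CD 5. Only LP 2 fell within the CD range, just below CD 4. The mean was 423 ± 207 in LP and 153 ± 53.2 in CD (SD, n = 4 and 5), a log2 fold change of 1.47 ± 0.43 (SE, edgeR adjusted p = 0.00546), the smallest of the 14.

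Of the tRFs that start inside the anticodon, at base 35, Asp-35b had the largest log2 fold change of the 14, a place that it lost without LP 4. Asp-35b had 75.4, 227, 104 and 621 normalized read counts in LP 1 to LP 4, against 35.2, 13.2, 56.5, 76.6 and 34.1 in CD 1 to CD 5. LP 4 was by far the highest sample and LP 1 lay just below CD 4. The log2 fold change was 2.57 ± 0.64 (SE, edgeR adjusted p = 0.00344), and it was 1.65 without LP 4 (edgeR adjusted p = 0.0152), below the 2.36 of Asp-27c, the highest then. Asp-35a, the same stretch with A at base 56, had a log2 fold change of 2.25 ± 0.60 (SE, edgeR adjusted p = 0.00442), which was 1.498 without LP 4 (edgeR adjusted p = 0.0176). These were the highest adjusted p of both tRFs over the 15 alternatives, and the lowest, with DESeq2 and its own size factors, were 3e-06 for Asp-35b and 1.3e-05 for Asp-35a. Asp-36, 1 base longer, was more even among samples, at 100.04, 139, 79.1 and 192 in LP 1 to LP 4, against 43.2, 23.1, 49.0, 35.6 and 23.8 in CD 1 to CD 5. Its groups did not overlap, and its log2 fold change was 1.87 ± 0.42 (SE, edgeR adjusted p = 0.00279).

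**Figure D2:**
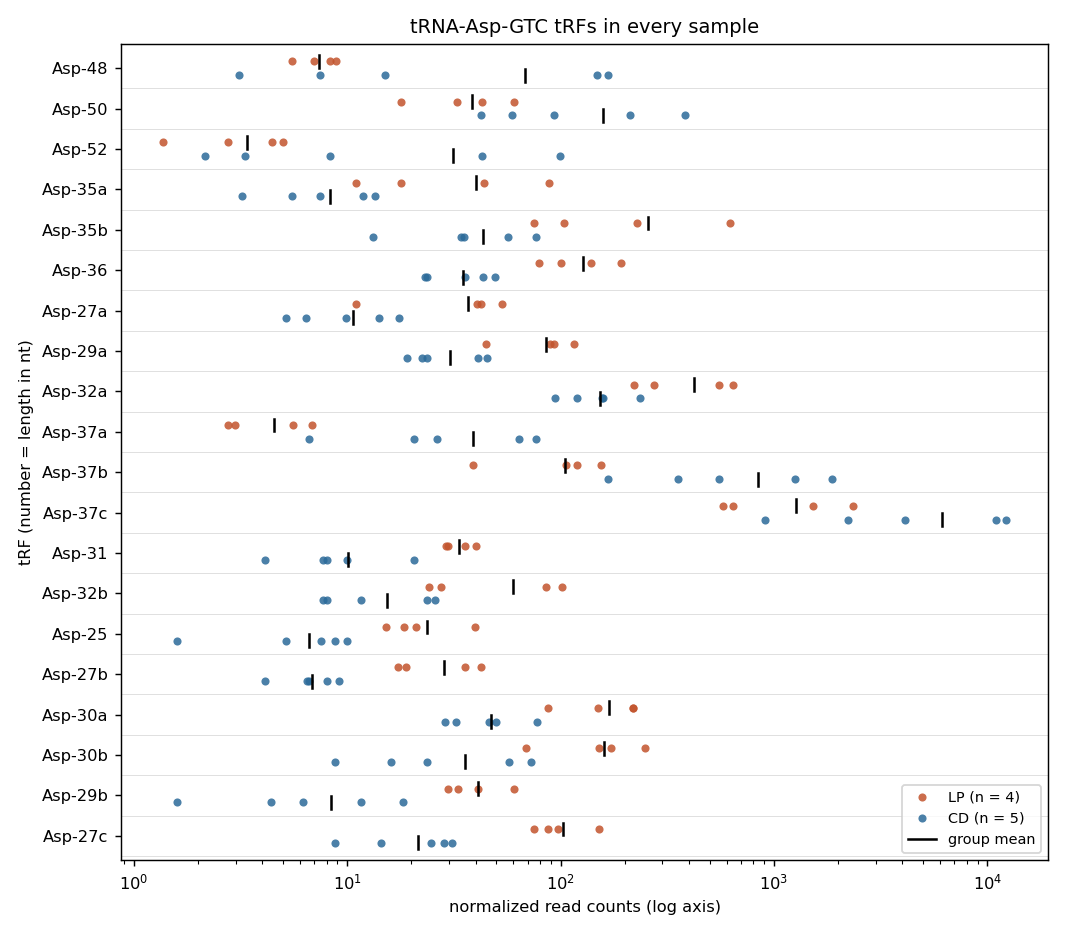
Normalized read counts (x axis, log scale) of the 20 tRNA-Asp-GTC tRFs (rows, in order of position) in each LP sample (upper points of a row) and CD sample (lower points), with a vertical bar at the group mean. Asp-37c lies at 575 to 2349 in LP and 911 to 12270 in CD, and the 14 tRFs of 25 to 36 nt have higher means in LP.

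The 4 tRFs that start at base 37 and match the joined sequence differ only in where they stop. Asp-27a (to base 63), Asp-29a (to base 65) and Asp-32a (to base 68) were called higher and Asp-37c (to base 73) lower. Over all hosts, 41.4% of the tested tRFs were called higher and 56.4% lower. All 4 were listed because they differed between these samples, and the shorter ones lie within Asp-37c. Unlisted forms from base 37 with other ends are not seen here, so the split gives no rule on the 3′ end. Asp-29a had 89.1, 44.9, 115 and 93.5 normalized read counts in LP 1 to LP 4, against 22.4, 45.1, 19.1, 40.997 and 23.8 in CD 1 to CD 5, where LP 2 alone lay within the CD range. Within these 4 forms, whose shares do not depend on the scaling of libraries, Asp-37c made up 85.3%, 67.6%, 46.9% and 66.2% of the counts in LP 1 to LP 4, against 98.9%, 95.9%, 82.4%, 88.5% and 98.5% in CD 1 to CD 5. LP 1 lay above CD 3 here, with 95% Wilson intervals of 83.7% to 86.8% in LP 1 and 80.3% to 84.4% in CD 3, and the other LP samples lay below every CD sample. The mean share was 66.5% ± 15.7 in LP and 92.8% ± 7.18 in CD (SD, n = 4 and 5). Asp-32a took 26.1% ± 12.7 in LP and 5.71% ± 5.89 in CD, with overlapping groups, since LP 1 (9.91%) lay below CD 3 (14.3%).

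Counted by their last base, the members showed the same split. Both tRFs that stop at base 63, both at base 65, all 3 at base 68, all 5 at base 69 and both at base 70 were called higher, while all 3 that stop at base 73 were called lower. Of the tRFs tested from all hosts, 41.4% were called higher and 56.4% lower. Many members are nested, and those at base 73 are Asp-37c, its variant Asp-37b and Asp-37a, which differs only by an undetermined base. The tally therefore does not count separate observations. By first base, the calls were mixed only at base 37. The 8 members that start at bases 38 to 44 were called higher, among them Asp-30a (from base 39), at 218, 149.5, 87.4 and 219 normalized read counts in LP 1 to LP 4, against 28.8, 49.5, 32.4, 46.4 and 77.5 in CD 1 to CD 5. The groups of Asp-30a did not overlap. Asp-27c, which starts farthest along the tRNA at base 44, had 151, 97.7, 87.4 and 75.1 in LP 1 to LP 4, against 14.4, 8.81, 28.3, 24.8 and 31.0 in CD 1 to CD 5. Its lowest LP sample was above its highest CD sample, and its log2 fold change was 2.24 ± 0.45 (SE, edgeR adjusted p = 0.00178).

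**Figure D3:**
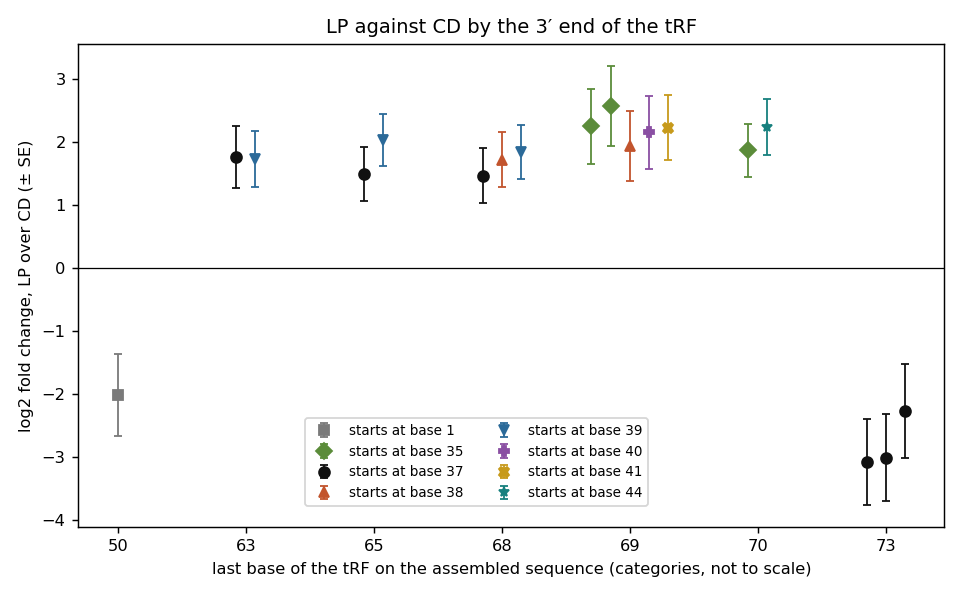
Log2 fold change of LP over CD (y axis, ± SE) of the 18 tested tRNA-Asp-GTC tRFs by their last base on the joined sequence (x axis, categories), with symbols for the first base. Values are 1.47 to 2.57 for tRFs that stop at bases 63 to 70, -3.08 to -2.26 for those that stop at base 73 and -2.01 for Asp-50.

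The remaining 7 tRFs of 25 to 36 nt were less abundant than Asp-32a and rose by similar amounts. Asp-30b (bases 40 to 69) averaged 160 ± 73.5 normalized read counts in LP and 35.6 ± 27.7 in CD (SD, n = 4 and 5), with overlapping groups and a log2 fold change of 2.15 ± 0.58 (SE). Asp-29b (bases 41 to 69) averaged 40.995 ± 13.9 in LP and 8.44 ± 6.64 in CD, with groups that did not overlap. Asp-32b (bases 38 to 69, with A at base 56) averaged 59.6 ± 39.6 in LP and 15.4 ± 8.78 in CD. Asp-31 (bases 38 to 68), Asp-27b (bases 39 to 65) and Asp-25 (bases 39 to 63) had groups that did not overlap, at LP means of 33.5, 28.5 and 23.5 and CD means of 10.1, 6.87 and 6.62. In CD the values of Asp-31, Asp-27b and Asp-25 rest on 4 to 19, 4 to 11 and 1 to 12 reads. Those of Asp-29b, Asp-32b and Asp-27a rest on 1 to 17, 5 to 24 and 4 to 21 reads in CD. All of these tRFs passed the count filter mainly through LP. Their calls, and any lack of overlap, therefore describe sizes only. Asp-27a had 42.5, 11.0, 53.0 and 40.6 in LP 1 to LP 4, against 6.40, 9.91, 17.5, 14.03 and 5.17 in CD 1 to CD 5, with LP 2 inside the CD range.

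The tRFs over 37 nt, which hold the 5′ arm and the anticodon, had the least even levels among CD samples. Asp-50, the only one tested, had 17.8, 42.9, 60.6 and 32.8 normalized read counts in LP 1 to LP 4, against 381, 212, 59.0, 92.8 and 42.4 in CD 1 to CD 5. CD 1 and CD 2 were far above the rest, and CD 3 and CD 5 lay within the LP range. The log2 fold change was -2.01 ± 0.64 (SE, edgeR adjusted p = 0.00764). It was -1.38 without CD 1 (edgeR adjusted p = 0.0263), and with scaling taken from the table it was -1.28 (TMM, edgeR adjusted p = 0.0515), -0.90 (table totals, edgeR adjusted p = 0.1502) or -1.10 (DESeq2, adjusted p = 0.0596). The adjusted p from edgeR or DESeq2 was 0.000555 to 0.1502 over the 15 alternatives.

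Asp-48 and Asp-52, left out of the test by the filter, followed the same samples. Asp-48 had 5.48, 6.98, 8.26 and 8.90 normalized read counts in LP 1 to LP 4, against 166, 149, 7.48, 15.1 and 3.10 in CD 1 to CD 5. CD 5 was the lowest of all 9 samples, with 3 reads, and CD 3 lay among the LP samples. Asp-52 had 1.37, 4.98, 2.75 and 4.45 in LP 1 to LP 4, against 99.2, 42.9, 3.33, 2.16 and 8.26 in CD 1 to CD 5, again with only CD 1 and CD 2 far from LP. Without the filter, the log2 fold changes were -3.14 ± 1.01 for Asp-48 and -3.06 ± 1.00 for Asp-52 (SE, edgeR adjusted p = 0.00861 and 0.00895). CD 5, which had the highest Asp-37c of all samples, was thus the lowest CD sample for Asp-48 and Asp-50.

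Summed by length class, the 25 to 36-nt tRFs came to 1288, 1301, 1277 and 2482 normalized read counts in LP 1 to LP 4, against 291, 319, 478, 637 and 433 in CD 1 to CD 5. Every LP sample was above every CD sample, and LP 4 stood apart from the other LP samples. The sums of the 37-nt tRFs were 2461, 617, 762 and 1682 in LP 1 to LP 4, against 12322, 4677, 1085, 2602 and 14211 in CD 1 to CD 5. LP 1 and LP 4 were above CD 3, so these groups overlapped. The tRFs over 37 nt summed to 24.7, 54.8, 71.6 and 46.2 in LP 1 to LP 4, against 647, 404, 69.8, 110.04 and 53.7 in CD 1 to CD 5, where CD 3 and CD 5 lay within the LP range. No p-value is given for these sums, since their members had been selected on the same samples.

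The group means of the sums were 1587 ± 597 in LP and 432 ± 138 in CD for 25 to 36 nt, 1380 ± 861 and 6980 ± 5917 for 37 nt, and 49.3 ± 19.5 and 257 ± 260 for the longer tRFs, LP and CD in that order each time (SD, n = 4 and 5). The 25 to 36-nt sum was thus 3.68-fold higher in LP, the 37-nt sum 5.06-fold higher in CD, and the sum of the longer tRFs 5.21-fold higher in CD. Without CD 1 the log2 ratio of the longer tRFs was -1.69, compared with -2.38 over all samples. The scaling moved these ratios. The log2 ratio of the 37-nt sums was -2.34, with -1.63 under TMM and -1.27 under table totals, and that of the longer tRFs was -1.62 under TMM and -1.24 under table totals. Over all 20 members the sum was 3016 ± 1141 in LP and 7668 ± 5935 in CD, with overlapping groups. This total turned on Asp-37c, since without it the log2 ratio of the group means was 0.15 in place of -1.35. With Asp-37c kept, it was -0.66 under TMM and -0.30 under table totals.

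The make-up of the tRNA-Asp-GTC counts, which does not depend on the scaling of libraries, differed between the groups. The 37-nt tRFs made up 65.2%, 31.3%, 36.1% and 39.9% of the counts in LP 1 to LP 4, against 92.9%, 86.6%, 66.4%, 77.7% and 96.7% in CD 1 to CD 5. The highest LP sample and the lowest CD sample were close, with 95% Wilson intervals of 63.4% to 67.0% in LP 1 and 64.3% to 68.5% in CD 3. The 25 to 36-nt tRFs made up 34.1%, 65.9%, 60.5% and 59.0% in LP 1 to LP 4, against 2.20%, 5.91%, 29.3%, 19.0% and 2.95% in CD 1 to CD 5. Here too LP 1 and CD 3 were nearest to each other, at intervals of 32.4% to 35.9% and 27.3% to 31.3%. The shares averaged 54.9% ± 14.2 in LP and 11.9% ± 11.9 in CD for 25 to 36 nt and 43.1% ± 15.1 in LP and 84.1% ± 12.2 in CD for 37 nt (SD, n = 4 and 5). The longer tRFs were 0.654% to 3.39% in LP and 0.366% to 7.48% in CD. These are shares of the listed tRFs only, and forms that did not meet the study's condition would change them. Since the members were listed for a difference between these same samples, the difference in shares is not independent evidence.

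**Figure D4:**
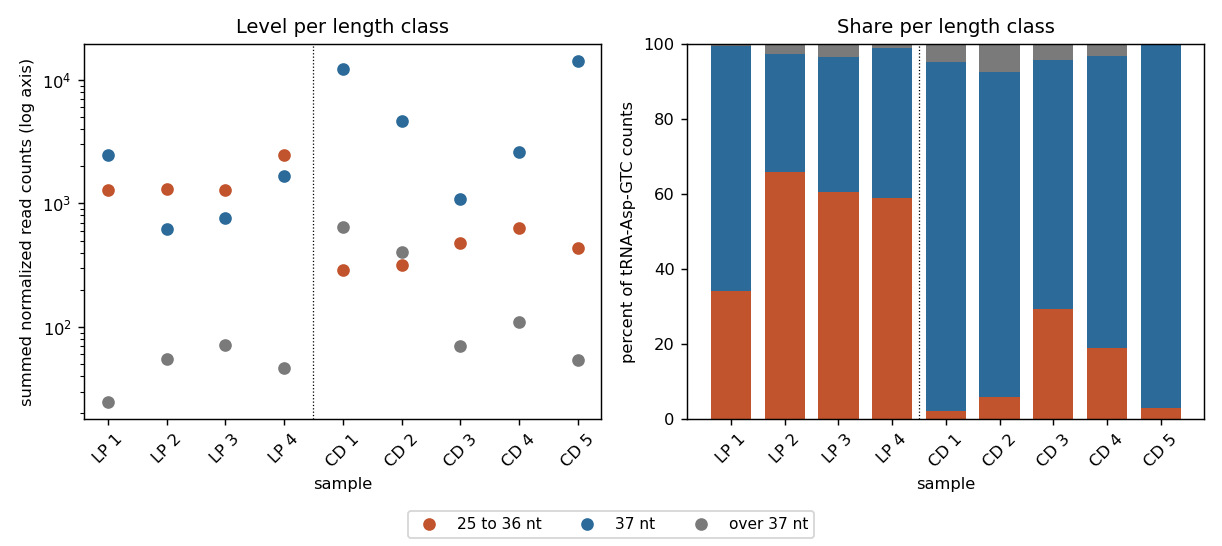
Left, summed normalized read counts (y axis, log scale) of the tRNA-Asp-GTC tRFs of 25 to 36 nt (14 tRFs), 37 nt (3 tRFs) and over 37 nt (3 tRFs) in each sample (x axis, LP left of the dotted line, CD right of it). Right, the share of each class in the tRNA-Asp-GTC counts of the sample (bars from 0 to 100%), where the 37-nt share is 31.3% to 65.2% in LP and 66.4% to 96.7% in CD.

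The ratio of the 25 to 36-nt sum to the 37-nt sum was 0.523 to 2.11 in LP and 0.0236 to 0.441 in CD, without overlap. The members of both sums were listed because they differed between these same samples, so a gap between the groups was largely built in. CD 3 and CD 4, the CD samples with the lowest 37-nt sums, also had the highest 25 to 36-nt sums in CD, so the make-up varied among CD samples in the direction that separated LP from CD. LP 1 was the LP sample nearest to CD. Its table total of 12556 counts was the smallest, and its part in the result was not tested. Without LP 1 the difference in the 37-nt share, LP minus CD, was -48.3 percentage points, and without CD 3 it was -45.3, compared with -40.9 over all samples.

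Fragments of the tRNAs that share modifications with tRNA-Asp-GTC were counted for comparison. Of the other nuclear queuosine tRNAs (tRNA-Asn-GTT, tRNA-His-GTG and tRNA-Tyr-GTA) only tRNA-His-GTG was in the table, with 14 tRFs, of which 13 were tested, 2 called higher and 11 lower, at a median log2 fold change of -2.02. Of the other tRNAs that Trdmt1 methylates, tRNA-Gly-GCC gave 13 tested tRFs, 4 called higher and 8 lower, at a median of -1.35. The remaining tRNAs of that list, tRNA-Val-AAC and tRNA-Val-CAC, shared the same 2 tRFs, both called higher. Beside them, tRNA-Asp-GTC had 14 higher and 4 lower, and all hosts together 75 higher and 102 lower. These counts describe tRFs listed as changed, and whether tRNA-Asp-GTC differs from these tRNAs was not tested.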

How the data were processed

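Small RNA libraries were made by the authors with the QIAseq miRNA kit, which adds molecular identifiers, from islet RNA treated with a kit that repairs fragment ends and removes base methylations that stop reverse transcription. tRFs were annotated by the authors with tRNAscan-SE (the algorithm behind GtRNAdb) and mitotRNAdb, with a minimum of 2 reads per sample, and were compared with DESeq2. FastQC is the tool named in the submitters' processing notes. Which aligner and build were used, and whether reads or molecular identifiers were counted, is not given in the sources used here. Per library, the deposited table gives raw read counts, left unscaled by the authors, and a second set of values headed as normalized counts. These deposited values are on a log2 scale and follow DESeq2's variance-stabilising transformation, to within 5.72e-05, and served only to recover the authors' size factors (0.625 to 1.80). The deposited fold change, adjusted p and direction hold the authors' own comparison and were not used.

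Rows were collapsed by sequence, since repeats carried identical values. edgeR 4.0.16 (R 4.3.3) was fitted to the counts of all 192 tRFs with the authors' size factors, no covariate and filterByExpr (minimum count 10), which left 181, and p-values were adjusted over these. Alternatives were other scaling factors (TMM, table totals), no filter, DESeq2 1.42.0, each sample left out in turn and the replicate number as a block, with their effect in the closing section. Each SE given with an edgeR log2 fold change was derived from the test, as the absolute log2 fold change over the square root of its F statistic. Shares have Wilson intervals (scipy 1.17.1). Every tRNA-Asp-GTC tRF is described, and outside them the 3 tRFs most alike to the most abundant member. Members, length classes and host lists were chosen with earlier results of these data known.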

Additional observations from a re-analysis of the deposited data

Results flagged for a closer look

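For each member, and for the sum and share of each length class, the highest and lowest sample of LP and of CD was checked for standing far from the rest, by the distance to the next sample over the whole spread of the group (levels on a log2 scale). Of 52 sets of values 2 were found, where chance gives about 1 in 20. The sum of the 25 to 36-nt tRFs was highest in LP 4, where it came to 2482 normalized read counts and the others had 1277 to 1301, a gap of 0.972 of the range. LP 4 was the highest LP sample for 10 of the 14 tRFs of that class. Asp-27a was lowest in LP 2, with 11.0 normalized read counts (11 reads) where the others had 40.6 to 53.0, a gap of 0.831 of the range.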

How the results depend on the processing

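No tested member changed direction under any of 15 alternatives, all planned. Of 266 values of single tRFs under them, 260 kept their call, and the 6 that lost it were those of Asp-37c and Asp-50 under the scalings taken from the table, given above. Asp-37a has no value without CD 1, CD 2, CD 4 or CD 5, since it did not pass the filter there. The number called higher was 14 under every alternative. The number called lower was 4, with 3 under TMM and under table totals, 6 without the filter, 6 with DESeq2 on the same size factors, and 3 to 5 with a sample left out, which changes which tRFs pass the filter. Under TMM the median log2 fold change of the table was -0.79 and that of the members 2.36, and under table totals -0.48 and 2.54. The log2 ratio of the 25 to 36-nt sums, 1.88, was 2.48 under TMM and 2.64 under table totals, while the falls of the 37-nt, the longer and all tRFs became smaller, to the values given above. The log2 ratio over all members was -1.35, and without Asp-37c it was 0.15. With the replicate number as a block, a fit in which CD 5 does not inform the comparison, 14 members were higher and 4 lower, and Asp-27c (2.46), not Asp-35b (2.24), had the highest log2 fold change. Same-numbered samples correlated at -0.40, 0.08, 0.06 and 0.01 in their deviations from the group means. No LP sample correlated best with the CD sample of its own number. These correlations gave no sign of pairing by number, and shared litters or handling were not tested. Depth limits the tRFs over 37 nt, Asp-37a (3 reads in LP 2) and, in CD 1, Asp-25 and Asp-29b (1 read each) and Asp-35a (2 reads).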

Other observations

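The members were also compared by how they varied among samples of the same group, as deviations of log2(normalized read counts + 1) from the group means over the 9 samples. These correlations are descriptions, and their points share the libraries, the size factors and, for nested sequences, the counted stretch. The 3 tRFs of 37 nt varied together (Pearson r = 0.88 to 0.97), and so did the 3 tRFs over 37 nt (0.80 to 0.91), while between these classes the median was 0.20 over 9 pairs. Between the 25 to 36-nt and the 37-nt tRFs the median was -0.19 over 42 pairs, with a range of -0.60 to 0.50. Among the 25 to 36-nt tRFs the median was 0.29 over 91 pairs, with a range of -0.48 to 0.94, so this class did not vary as 1 unit.

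The tRFs of other hosts that varied most like Asp-37c were all from tRNA-Arg-CCT. They were tRNA-Arg-CCT 34 (Pearson r = 0.87, Spearman rho = 0.73), tRNA-Arg-CCT 40 (Pearson r = 0.81, Spearman rho = 0.92) and tRNA-Arg-CCT 33 (Pearson r = 0.80, Spearman rho = 0.78), each over 9 samples. tRNA-Arg-CCT 34 averaged 21.8 ± 8.08 normalized read counts in LP and 72.2 ± 34.4 in CD (SD, n = 4 and 5).

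The undetermined first base of Asp-37a was rarer in LP libraries. It took 0.291% to 0.517% of the counts of Asp-37a and Asp-37c together in LP and 0.519% to 0.913% in CD, where the highest LP sample, LP 2, has a 95% Wilson interval of 0.176% to 1.51% from 3 reads. The ranges do not overlap but lie within the counting error of single samples, and Asp-37a was listed because it differed between these samples.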
